A study of Mus musculus with 12 samples.

Results

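The levels of 10 genes of the endoplasmic reticulum (ER) protein folding system and the unfolded protein response (UPR) were followed in autophagy-deficient vascular tumor cells: the chaperones Hspa5, Hsp90b1 and Calr, the co-chaperones Dnajb9 and Dnajc3, the disulfide isomerases Pdia4 and Pdia6, the regulators Atf6 and Xbp1, and Herpud1, a component of ER-associated degradation. They were chosen by gene symbol, and all 10 were among the 14851 genes listed for the RNA-sequencing of 562 cells and among the genes tested in every comparison. 562 is a spontaneously immortalized mouse line, grown from vascular tumors that formed after tamoxifen-induced deletion of Tsc1 in Tsc1f/f;Scl-Cre mice, so control and knockout cells alike derive from Tsc1-deleted endothelial cells, although the labels give the control genotype as wildtype. Fip200 (encoded by Rb1cc1), Atg5 or Atg7 was knocked out (KO) by lentiviral CRISPR-Cas9 and puromycin selection, and per the study's methods the control guide RNA targeted EGFP. Each of the 4 groups (control, Fip200 KO, Atg5 KO, Atg7 KO) had 3 libraries on the C57BL/6 background. Atg5 KO and Atg7 KO cells were each made with 1 guide RNA, the Fip200 KO line that was sequenced was not stated, and nothing in the labels placed the replicates in separate clones, so the p-values measure only the spread between these samples.

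Proteins that enter the secretory pathway fold in the ER lumen with the help of the Hsp70 chaperone BiP (Hspa5), its J-domain co-chaperones, the Hsp90 family member Grp94 (Hsp90b1), the lectin chaperone calreticulin (Calr) and disulfide isomerases. When unfolded proteins accumulate, the sensors Ire1, Perk and Atf6 start the UPR: Ire1 splices Xbp1 mRNA into the form that encodes an active transcription factor, Atf6 is released from the membrane by the proteases S1P and S2P (Mbtps1 and Mbtps2), and Perk slows translation while favoring Atf4 and its targets. Misfolded proteins leave through ER-associated degradation, and portions of the ER itself can be delivered to lysosomes by autophagy. Values below are gene-level RNA abundances, which count spliced and unspliced Xbp1 mRNA together and do not show cleavage of Atf6 or the activity of any sensor.

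The promoter sequences are shown first because the genes differed in the ER stress elements they carry, motifs known to bind Atf6 and Xbp1. RefSeq promoters on GRCm38.p6, from 250 bases before to 50 bases after each annotated start, matched 9 of the 10 genes. An exact ERSE, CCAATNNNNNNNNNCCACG searched on both strands, stood in 5 of these 9 genes (Hspa5, Hsp90b1, Calr, Dnajc3 and Pdia6), and in 0.119% of all 32851 promoters. An exact ERSE-II, ATTGGNCCACG on both strands, stood in Herpud1 alone among the 9, and in 0.0365% of all promoters. The UPR element UPRE, TGACGTGG on both strands, stood in 0.676% of promoters and was not found in the 9 windows. None of the 3 motifs was found in Dnajb9, Pdia4 or Xbp1, which says only that these exact letters are not in those windows. None of the 9 genes held both an ERSE and an ERSE-II match. The stretches around the matches read 5′ to 3′ on the strand of the gene, with the matches in capitals, the bases of the spacer included, and an opposite-strand match appearing as its reverse complement.
Hspa5 promoter, chr2:34771985-34772083, plus strand: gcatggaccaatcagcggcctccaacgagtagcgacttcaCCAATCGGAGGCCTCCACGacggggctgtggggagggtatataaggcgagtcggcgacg
Hsp90b1 promoter, chr10:86705493-86705694, minus strand: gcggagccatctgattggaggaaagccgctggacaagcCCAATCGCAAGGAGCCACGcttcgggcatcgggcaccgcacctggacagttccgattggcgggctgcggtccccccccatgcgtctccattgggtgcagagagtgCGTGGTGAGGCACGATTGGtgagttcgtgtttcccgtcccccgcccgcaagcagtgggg
Calr promoter, chr8:84847035-84847133, minus strand: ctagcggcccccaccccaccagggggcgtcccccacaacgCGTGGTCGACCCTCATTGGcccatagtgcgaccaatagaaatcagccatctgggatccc
Dnajc3 promoter, chr14:118937787-118937885, plus strand: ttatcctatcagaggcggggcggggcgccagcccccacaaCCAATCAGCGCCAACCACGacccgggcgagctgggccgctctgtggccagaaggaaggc
Pdia6 promoter, chr12:17266451-17266549, plus strand: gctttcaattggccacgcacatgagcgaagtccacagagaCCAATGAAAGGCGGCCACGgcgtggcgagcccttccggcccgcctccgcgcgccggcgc
Herpud1 promoter, chr8:94386337-94386427, plus strand: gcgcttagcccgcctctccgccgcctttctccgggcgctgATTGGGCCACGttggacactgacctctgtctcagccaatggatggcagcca

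**Figure D1:**
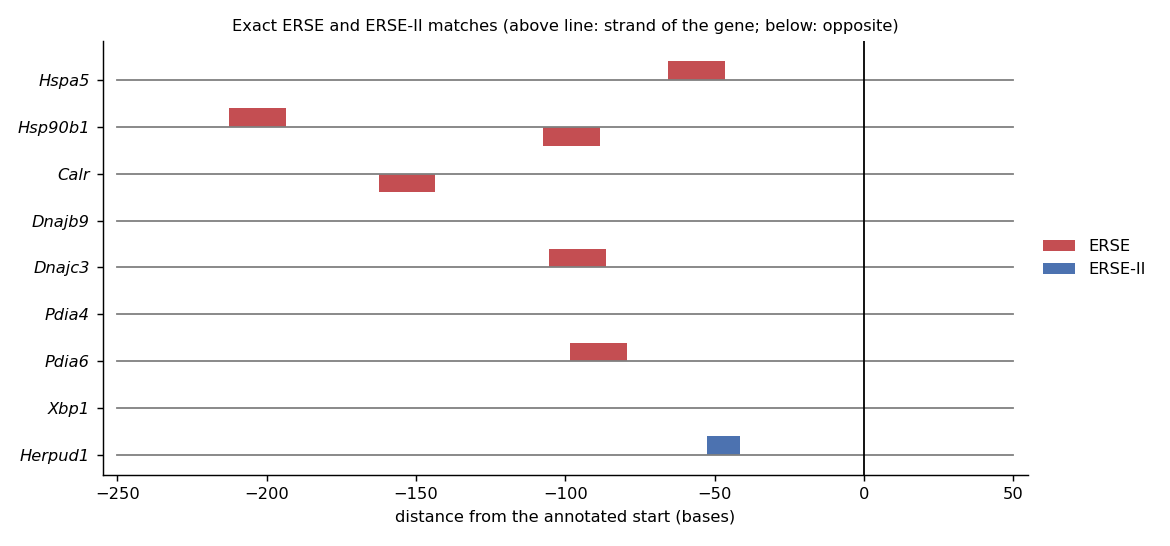
Positions of exact ERSE (red) and ERSE-II (blue) matches in the RefSeq promoters of 9 genes, as distance in bases from the annotated start, with matches on the strand of the gene above each line and those on the opposite strand below it. The ERSE matches begin between 212 bases (Hsp90b1) and 65 bases (Hspa5) before the start, and the ERSE-II of Herpud1 begins 52 bases before it.

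Libraries held between 17266926 and 23629730 counted reads, and a gene's level is given as RPKM, reads per kilobase of transcript scaled to library size. A gene passed the test when limma on log2(RPKM + 0.5) gave it an adjusted p no higher than 0.1. It was called when its log2 fold change was also at least 1 in size. The library of control replicate 2 stood apart from the other 2 controls. Of 8 PERK arm targets, all 8 were highest in that library among the 12, against 14.6% of all 12030 tested genes, as were 5 of the 10 folding and UPR genes. Its 8 mural cell and fibroblast markers summed to 70.7 RPKM, led by decorin (Dcn) at 56.9 RPKM. Their sum was 1.15 and 20.8 RPKM in the other controls and 1.79 to 16.2 RPKM in the KO libraries. In control replicate 2 Pdgfra and Pdgfrb were at 9.024 and 4.19 RPKM, whereas Col1a1 and Cspg4 were at 0.07848 and 0.02628 RPKM. Against control, Acta2 of this list was at 1.226, 1.496 and 1.848 (log2) in Fip200, Atg5 and Atg7 KO. Dcn was at -3.299 and -2.881 in Fip200 and Atg5 KO. Of the tested genes of the list, 1 was called higher in Atg5 KO and 1 in Atg7 KO. The 12 endothelial markers of control replicate 2 summed to 1391 RPKM, the lowest of the 12 libraries, against 1870 to 3069 in the others. The mural cell marker Rgs5 was listed at 0 in all 3 controls. The part of these markers in the results was not tested, and among the ER genes named below, those that passed the test and either lost a call or moved by over 1.5 times without this library are given with and without it. The endothelial genes Pecam1 and Cdh5 were at 265 to 539 and 116 to 805 RPKM, and the lymphatic gene Lyve1 was at 60.6 to 393 RPKM, whereas Prox1, which defines lymphatic endothelium, was at 0.0366 to 5.79 RPKM. Of the 12 endothelial markers, 5 passed higher in Atg5 KO (Lyve1, Cdh5, Kdr, Flt4 and Tie1), which is 41.7% beside 22.9% of all tested genes. In Atg7 KO 1 passed higher (Lyve1), 8.33% beside 11.3%. Flt1 fell in Fip200 KO and Atg7 KO, from a mean of 24.5 RPKM in control to 2.42 and 3.01 RPKM (adjusted p = 0.0995 and 0.0196 by limma), and it did not pass in Fip200 KO without control replicate 2. The part of these shifts in the results was not tested. The names of the libraries in the labels carry 3 prefixes. Control replicate 1 and all Fip200 KO libraries share 1, and control replicates 2 and 3 and Atg5 KO replicates 1 and 2 share another. The third is shared by Atg5 KO replicate 3 and all Atg7 KO libraries, which holds no control.

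The mRNA of the targeted gene is no check of a CRISPR knockout that shifts the reading frame. Per the study's methods, the Fip200, Atg5 and Atg7 knockouts were checked by western blot. Atg7 fell in Atg7 KO cells (2.64 to 8.34 RPKM, against 18.4 to 25.0 in control). It was also below control in Atg5 KO (9.94 to 11.9 RPKM) and ranged from 8.23 to 38.3 RPKM in Fip200 KO, so the lower level was not particular to Atg7 KO libraries. Atg5 was at 8.53 to 15.6 RPKM in Atg5 KO and 10.6 to 14.2 RPKM in control cells. Rb1cc1 was at 2.06 to 6.84 RPKM in Fip200 KO and 6.43 to 8.28 RPKM in control cells, and neither of these passed the test.

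Loss of the autophagy genes was compared with control to ask how the folding and UPR genes stood in cells without autophagy. Herpud1 and Dnajb9 were lower in every KO library than in every control. Atf6 and Calr were lower than every control in every Atg5 KO and Atg7 KO library, while Hspa5, Dnajc3, Pdia4, Pdia6 and Xbp1 did not pass the test in any KO. In Fip200 KO cells, 0 of the 10 genes passed the test by limma (backgrounds of 1.69% of 11803 tested genes lower and 0.356% higher), and 3 had an unadjusted p under 0.05, as did 1904 of all tested genes. The count was also 0 by limma voom on the recovered reads. Fip200 KO replicate 3 differed more from the rest of its group than control replicate 2 did from the other controls (values under the processing below). In Atg5 KO cells 4 genes passed, all lower (Herpud1, Atf6, Dnajb9 and Calr), where 18.7% of 11833 tested genes passed lower and 22.9% passed higher. In Atg7 KO cells 5 genes passed, of which Herpud1, Atf6, Dnajb9 and Calr fell and Hsp90b1 rose, where 13.7% of 11784 tested genes passed lower and 11.3% higher. Past 2-fold, 0 genes were called in Fip200 KO (background 1.64% lower, 0.347% higher), 2 were called lower in Atg5 KO, namely Herpud1 and Atf6 (background 6.94% lower, 4.31% higher), and 1 lower in Atg7 KO, Herpud1 (background 6.81% lower, 3.29% higher). The 3 comparisons share the same 3 control libraries and are not independent of each other.

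**Figure D2:**
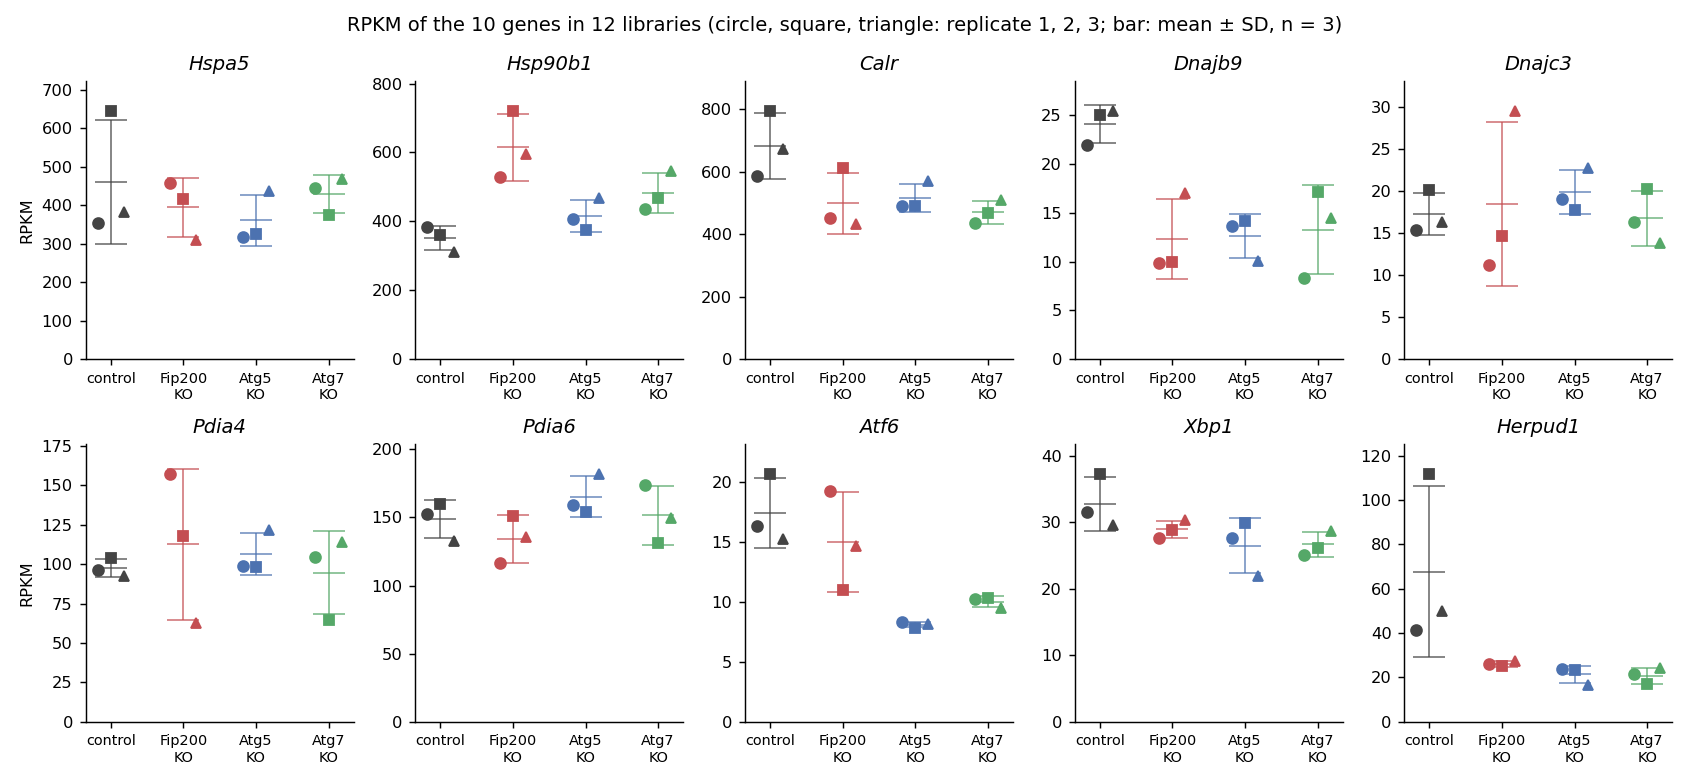
RPKM of each of the 10 genes in the 12 libraries by group, with symbols for replicates 1 to 3 and bars for the mean ± SD (n = 3 per group). Herpud1 is between 41.4 and 112 RPKM in the controls and at or under 27.6 RPKM in all 9 KO libraries, while the Hspa5, Pdia4, Pdia6 and Dnajc3 groups overlap.

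The libraries of KO and control were also compared by overlap. In Fip200 KO cells 2 genes lay wholly below control and 1 wholly above, against 12.4% and 11.7% of tested genes. In Atg5 KO cells 4 lay below and 0 above, against 22.0% and 28.4%. In Atg7 KO cells 5 lay below and 1 above, against 20.4% and 19.2%. The median log2 fold change of the 10 genes was -0.18 (Fip200 KO), -0.31 (Atg5 KO) and -0.19 (Atg7 KO). That of all tested genes was 0.02, 0.06 and -0.01 in the same order.

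**Figure D3:**
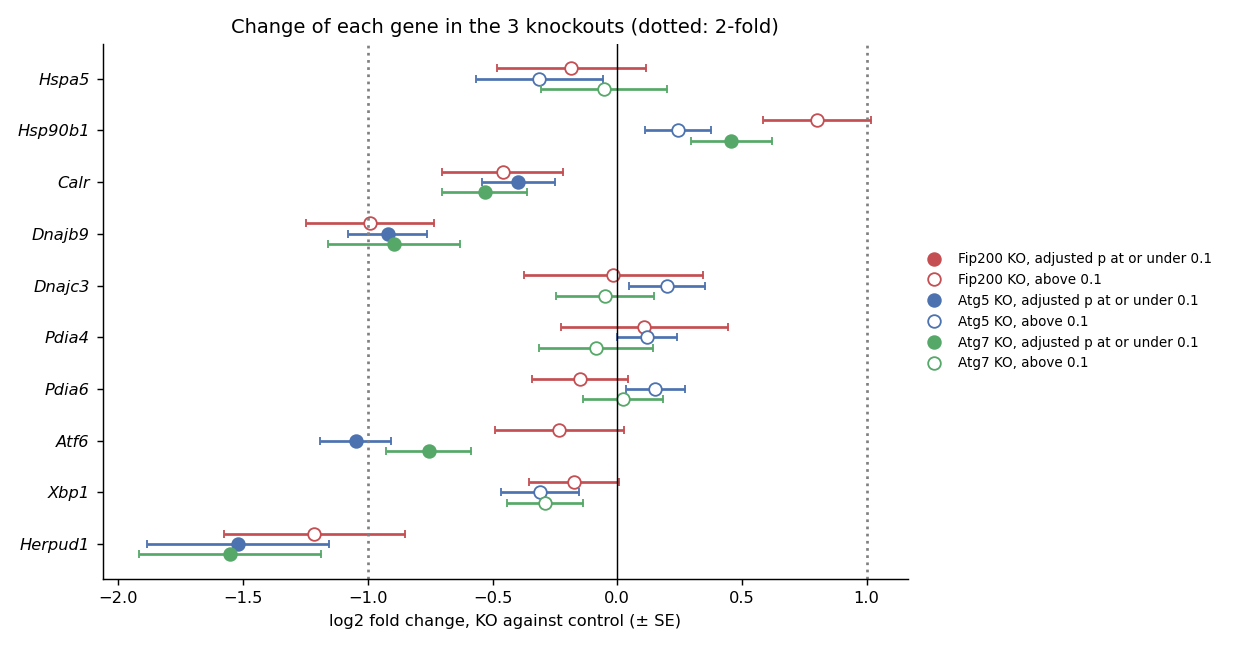
Log2 fold change of each gene against control with its SE in Fip200 KO (red), Atg5 KO (blue) and Atg7 KO (green), with filled points for genes past the test and dotted lines at 2-fold. Herpud1, Dnajb9, Calr, Atf6, Xbp1 and Hspa5 lie left of 0 in all 3 KO, and Hsp90b1 lies right of 0.

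BiP, encoded by Hspa5 (gene ID 14828), is the main Hsp70 chaperone of the ER and holds the sensors inactive when unfolded protein is scarce. It was the 99th most abundant RNA of control cells. It was at 353, 645 and 381 RPKM in control replicates 1 to 3 and 458, 416 and 310.2 RPKM in Fip200 KO. It was at 318, 325 and 438 RPKM in Atg5 KO, and 445, 374 and 469 RPKM in Atg7 KO. All 3 KO groups overlapped control, where replicate 2 was 1.83 times replicate 1. The log2 fold changes were -0.19 ± 0.30, -0.31 ± 0.25 and -0.05 ± 0.25 (SE, n = 3 per group) in Fip200, Atg5 and Atg7 KO, with adjusted p of 0.782, 0.375 and 0.905 by limma. With control replicate 2 left out they were 0.09, -0.04 and 0.22, so the sign in Fip200 KO and Atg7 KO turned with that library. With a term for the library-name prefix they were 0.14, -0.63 and -0.66 (adjusted p = 0.947, 0.261 and 0.682 by limma), so the values in Atg5 KO and Atg7 KO moved the opposite way.

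Grp94, encoded by Hsp90b1 (gene ID 22027), is the Hsp90 chaperone of the ER lumen and folds integrins and Toll-like receptors. It was the only one of the 10 genes with a mean above control in all 3 KO, and the only one that passed the test higher in any of them. It was at 382, 359 and 312 RPKM in control and 528, 721 and 595 RPKM in Fip200 KO, and at 406, 374 and 467 RPKM in Atg5 KO, and 434, 467 and 546 RPKM in Atg7 KO. Every Fip200 KO and Atg7 KO library was above every control library, and the Atg5 KO libraries overlapped control. Hsp90b1 rose in Atg7 KO (log2 fold change 0.46 ± 0.16, adjusted p = 0.0984 by limma), and the larger difference of 0.80 ± 0.22 in Fip200 KO had an adjusted p of 0.16. When control replicate 2 was left out, the value in Atg7 KO was 0.48 with an adjusted p of 0.18, and it passed in 4 of 14 alternative analyses.

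Calreticulin, encoded by Calr (gene ID 12317), binds calcium and monoglucosylated glycoproteins. It was the most abundant of the 10 RNAs in control, the 44th of all. It was at 585, 795 and 671 RPKM in control and 453, 611 and 433 RPKM in Fip200 KO, and at 491, 489 and 569 RPKM in Atg5 KO, and 434, 467 and 509 RPKM in Atg7 KO. All Atg5 KO and Atg7 KO libraries were below the lowest control, whereas 1 Fip200 KO library was above it. Calr fell by 0.40 on the log2 scale in Atg5 KO (SE 0.15, adjusted p = 0.0811 by limma) and by 0.53 in Atg7 KO (SE 0.17, adjusted p = 0.0777). The difference in Fip200 KO was -0.46 ± 0.24 (adjusted p = 0.394). Leaving out control replicate 2 gave -0.28 in Atg5 KO and -0.42 in Atg7 KO, with adjusted p of 0.148 and 0.185, and neither passed. Calr passed in 6 of 14 alternative analyses in Atg5 KO and in 7 of 14 in Atg7 KO.

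Dnajb9 (gene ID 27362), the co-chaperone ERdj4, is an Ire1-Xbp1 target that brings BiP to Ire1 and to clients of ER-associated degradation. Its controls were close together at 21.9, 25.0 and 25.5 RPKM. It was at 9.85, 9.99 and 17.0 RPKM in Fip200 KO, at 13.7, 14.2 and 10.0 RPKM in Atg5 KO, and at 8.29, 17.2 and 14.4 RPKM in Atg7 KO. No KO library reached the lowest control, including the control replicate 2 library that was high for other UPR genes. Dnajb9 fell by 0.92 on the log2 scale in Atg5 KO (SE 0.16, adjusted p = 0.00978 by limma) and by 0.90 in Atg7 KO (SE 0.27, adjusted p = 0.0649). In Fip200 KO it was at -0.99 ± 0.26 with an adjusted p of 0.147. The difference was nearly as large without control replicate 2, at -0.89 in Atg5 KO (adjusted p = 0.0261), whereas in Atg7 KO, at -0.87, it no longer passed (adjusted p = 0.165). Dnajb9 in Fip200 KO passed without Fip200 KO replicate 3 (log2 fold change -1.24, adjusted p = 0.034) and in a fit of all 12 libraries, and in Atg7 KO it passed in 8 of 14 alternative analyses. It had the fewest reads of the 10 genes, at 267 to 1104 per library, and 267 reads give a counting error of 6.12%.

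Dnajc3 (gene ID 100037258), the co-chaperone p58IPK, and the disulfide isomerases Pdia4 (gene ID 12304) and Pdia6 (gene ID 71853) did not pass in any KO, with log2 fold changes between -0.15 and 0.20. Dnajc3 ranged from 11.1 RPKM in Fip200 KO replicate 1 to 29.5 RPKM in Fip200 KO replicate 3. Pdia4 ranged the opposite way, from 158 RPKM in Fip200 KO replicate 1 to 62.4 RPKM in Fip200 KO replicate 3. Both extremes of both genes were therefore in the same group. Their log2 fold changes there, -0.02 ± 0.36 for Dnajc3 and 0.11 ± 0.33 for Pdia4, carried the largest errors of the 10 genes after Herpud1. Pdia6, which also limits Ire1 signaling, had the narrowest range, from 116 to 182 RPKM over the 12 libraries.

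Atf6 (gene ID 226641) encodes the membrane-bound transcription factor that induces ER chaperones after its cleavage. Its RNA was at 16.3, 20.7 and 15.2 RPKM in control and at 19.3, 11.0 and 14.7 RPKM in Fip200 KO. In Atg5 KO it was at 8.27, 7.84 and 8.12 RPKM, and in Atg7 KO at 10.3, 10.3 and 9.51 RPKM. The Atg5 KO libraries were within 1.06-fold and the Atg7 KO libraries within 1.08-fold of each other, all below every control and every Fip200 KO library. Atf6 fell by 1.05 on the log2 scale in Atg5 KO (SE 0.14, 2.07-fold, adjusted p = 0.0059 by limma) and by 0.76 in Atg7 KO (SE 0.17, 1.69-fold, adjusted p = 0.0322). It was at -0.23 ± 0.26 in Fip200 KO (adjusted p = 0.678). Without control replicate 2 the value in Atg5 KO was -0.92 (adjusted p = 0.0122), still past the test and under the 2-fold limit. Set against Fip200 KO directly, Atf6 was at -0.82 ± 0.20 in Atg5 KO and -0.52 ± 0.20 in Atg7 KO, with adjusted p of 0.356 and 0.611 by limma, so a difference between the knockouts was not shown. Atf6 passed in Atg5 KO against Fip200 KO without Fip200 KO replicate 3 (log2 difference -0.81, adjusted p = 0.0959).

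Xbp1 (gene ID 22433) was the least variable of the 10 genes within groups, with a pooled SD of 0.155 on the log2 scale, lower than in all but 6.8% of tested genes. Its RNA was at 31.5, 37.3 and 29.5 RPKM in control and 27.6, 28.9 and 30.3 RPKM in Fip200 KO. It was at 27.6, 29.9 and 21.9 RPKM in Atg5 KO and 25.1, 26.2 and 28.7 RPKM in Atg7 KO. The Atg7 KO libraries were all below control and the other groups overlapped it. The log2 fold changes were -0.17 ± 0.18, -0.31 ± 0.16 and -0.29 ± 0.15 in Fip200, Atg5 and Atg7 KO, with adjusted p of 0.655, 0.169 and 0.223 by limma.

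Herpud1 (gene ID 64209) encodes Herp, an ER membrane protein with a ubiquitin-like domain that organizes the Hrd1 ubiquitin ligase, and is the gene with the ERSE-II shown above. It was at 41.4, 112 and 49.7 RPKM in control and 26.0, 25.0 and 27.6 RPKM in Fip200 KO, and at 23.8, 23.4 and 16.7 RPKM in Atg5 KO, and 21.5, 16.9 and 24.0 RPKM in Atg7 KO. No KO library overlapped control, and all Atg5 KO and Atg7 KO libraries also lay below the lowest Fip200 KO library. Herpud1 fell by 1.52 on the log2 scale in Atg5 KO (SE 0.37, 2.87-fold, adjusted p = 0.0243 by limma) and by 1.55 in Atg7 KO (SE 0.36, 2.93-fold, adjusted p = 0.0361). It was at -1.21 ± 0.36 in Fip200 KO (2.32-fold, adjusted p = 0.185). Leaving out control replicate 2, the highest library, gave -1.09 in Atg5 KO (adjusted p = 0.0193), -1.12 in Atg7 KO (adjusted p = 0.0568) and -0.78 in Fip200 KO (adjusted p = 0.401). Herpud1 passed in all 14 alternative analyses in Atg5 KO and in 11 of 14 in Atg7 KO, where it did not pass without control replicate 3 or Atg7 KO replicate 1. Within the library-name prefix shared by 2 Atg5 KO and 2 control libraries the difference was -1.64, and within that shared by the 3 Fip200 KO libraries and 1 control it was -0.65.

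The same within-prefix comparison gave -1.09 for Atf6, -0.84 for Dnajb9, -0.63 for Hspa5 and -0.58 for Calr in Atg5 KO, and 0.67 for Hsp90b1, -0.86 for Dnajb9 and -0.25 for Calr in Fip200 KO. The other genes lay between -0.21 and 0.22 in Atg5 KO and between -0.19 and 0.14 in Fip200 KO. No control library shares a prefix with the Atg7 KO libraries. With a term for the prefix, Atg7 KO is therefore linked to control only through Atg5 KO replicate 3, the other library of its prefix. In a fit of all 12 libraries with that term 0 of the 10 genes passed in Atg7 KO. Atf6 (adjusted p = 0.0754) and Herpud1 (adjusted p = 0.0419) still passed in Atg5 KO by limma.

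The direct comparisons between knockouts, over 12233 tested genes in a fit of all 12 libraries, gave 0 of the 10 genes past the test by limma in Atg5 KO against Fip200 KO, in Atg7 KO against Fip200 KO and in Atg7 KO against Atg5 KO, where 0.0% of all genes passed in each. At an unadjusted p under 0.05 the counts were 2 (Atf6 and Hsp90b1), 1 (Atf6) and 0. Hsp90b1 was at -0.56 ± 0.17 in Atg5 KO against Fip200 KO (adjusted p = 0.524), without overlap of the libraries.

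The 10 genes did not vary as a block over the libraries. Over the 12 libraries, Pearson's r of log2(RPKM + 0.5), given as a description since the libraries share groups and depth, was highest between Xbp1 and Herpud1 (0.85, and 0.74 within groups), followed by Calr and Herpud1 (0.77, and 0.36 within groups) and Atf6 and Herpud1 (0.74, and 0.41 within groups). It was lowest between Dnajc3 and Pdia4 (-0.72, and -0.82 within groups), whose extremes lay in the Fip200 KO replicates named above. Among the 3 chaperones, whose promoters each hold an exact ERSE, r was -0.02 between BiP and Grp94 (0.22 within groups), 0.53 between BiP and Calr (0.68 within groups) and -0.39 between Grp94 and Calr (0.60 within groups). Among 10091 other genes with a mean of at least 2 RPKM, those most like Hspa5 over the 12 libraries were Btbd1 (r = 0.92), Ak1 (0.89), Cttn (0.88), Acvr2a (0.87) and Slc5a3 (0.86), whereas Calr ranked 790th (0.53), Pdia4 952nd (0.50) and Herpud1 1076th (0.48).

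**Figure D4:**
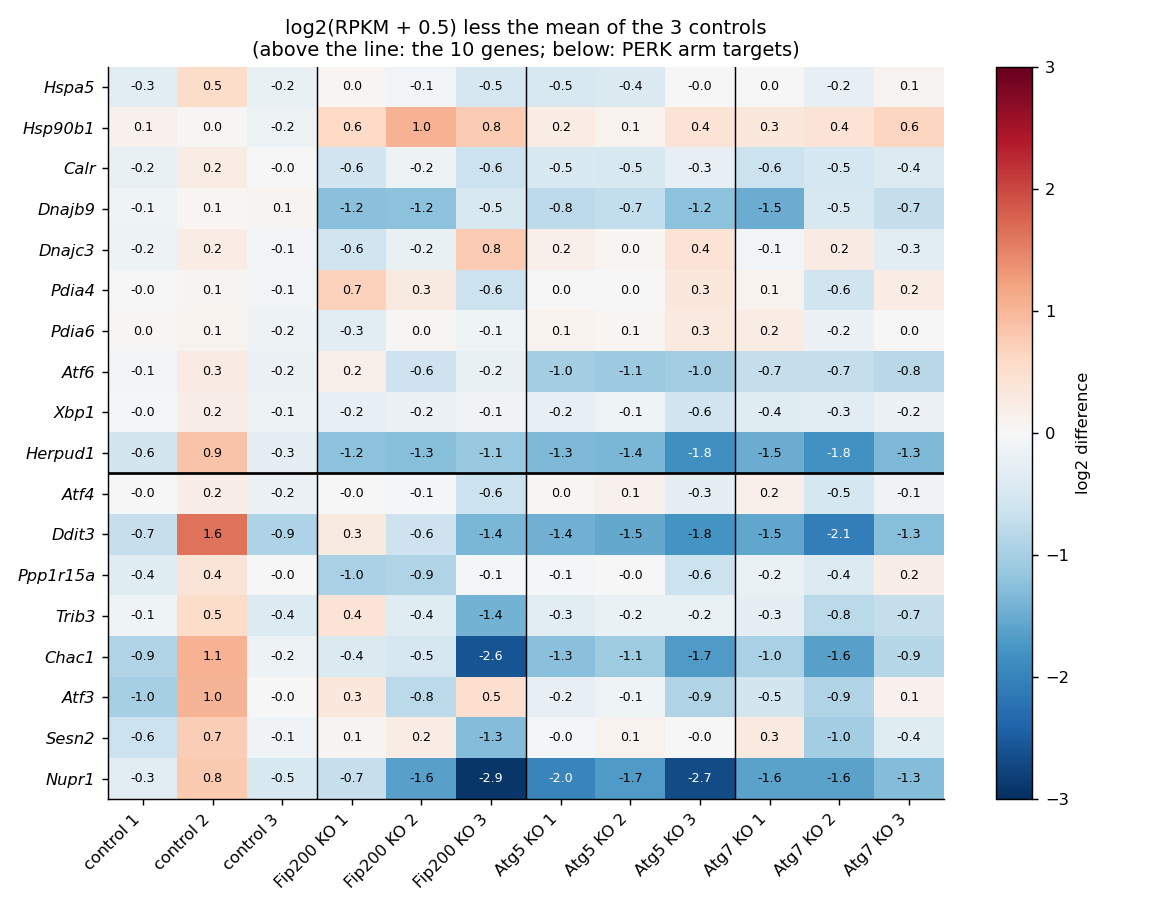
Difference of log2(RPKM + 0.5) from the mean of the 3 controls for the 10 genes (above the line) and 8 PERK arm targets (below it) in each library, red higher and blue lower. The column of control replicate 2 is red for all 8 PERK arm targets, and the Herpud1 row is blue in all 9 KO libraries.

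The wider ER pathway was read from lists of genes by role. Of 38 ER chaperones and folding enzymes, 0 passed in Fip200 KO, 9 fell and 1 rose in Atg5 KO, and 5 fell and 2 rose in Atg7 KO, with list medians of -0.08, 0.00 and -0.06 (log2). The 9 of 38 that fell in Atg5 KO were 23.7% of the list, near the 18.7% of all tested genes that passed lower, and the 5 of 38 in Atg7 KO were 13.2% against 13.7%. Those that rose were 2.63% and 5.26% of the list, against 22.9% and 11.3% of all tested genes. Leaving out the 7 of the 10 genes that the list holds, 7 of 31 fell in Atg5 KO and 3 of 31 in Atg7 KO. The called genes were Sil1, the nucleotide exchange factor of BiP, and Ero1l, the oxidase that recharges disulfide isomerases, both in Atg5 KO. Sil1 was at 33.8, 46.0 and 32.4 RPKM in control and 15.7, 16.5 and 14.2 RPKM in Atg5 KO, and fell by 1.23 on the log2 scale (SE 0.16, adjusted p = 0.00511 by limma). It also fell in Atg7 KO by 0.92 (SE 0.24, adjusted p = 0.0475). Ero1l was at 193, 679 and 231 RPKM in control and 58.9, 112 and 75.5 RPKM in Atg5 KO, and fell by 1.97 (SE 0.48, adjusted p = 0.0258). It ranged from 65.3 to 1129 RPKM within the Fip200 KO group. Fkbp7 (-0.85 ± 0.18) and Txndc12 (-0.48 ± 0.16) were the other genes outside the 10 that fell in Atg7 KO, with adjusted p of 0.0285 and 0.0871, and like those that follow they are named after their values were seen. The genes that rose were Creld2 in Atg5 KO (log2 fold change 0.39 ± 0.16, adjusted p = 0.0984) and Manf (0.43 ± 0.14, adjusted p = 0.0763) beside Hsp90b1 in Atg7 KO. The count past the test in Atg7 KO was 1 instead of 7 without control replicate 2, where the share of all tested genes was 10.6% instead of 25.1%.

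Of the 7 sensors and their proteases, 4 fell in Atg5 KO and 3 in Atg7 KO, with list medians of -0.52 and -0.54 against -0.17 in Fip200 KO, where 0 passed. The shares that fell, 57.1% and 42.9% of the 7 genes, stood beside 18.7% and 13.7% of all tested genes. Leaving out Atf6 and Xbp1, which are among the 10 genes, 3 of 5 fell in Atg5 KO and 2 of 5 in Atg7 KO. Beside Atf6, the genes that fell in Atg7 KO were the proteases that cleave it. Mbtps2, which encodes S2P, was called in Atg5 KO, at 4.41, 3.96 and 3.91 RPKM against 8.76, 8.09 and 9.77 RPKM in control (log2 fold change -1.03 ± 0.13, adjusted p = 0.00527 by limma). It fell by 0.83 in Atg7 KO (SE 0.18, adjusted p = 0.0287). Mbtps1, which encodes S1P and is named here after its values were seen, was at 55.6, 67.5 and 59.1 RPKM in control and 36.6, 32.8 and 31.8 RPKM in Atg5 KO. It fell by 0.84 (SE 0.12, adjusted p = 0.00605) and, in Atg7 KO, by 0.72 (SE 0.24, adjusted p = 0.0848). In Fip200 KO Mbtps1 was at 15.2, 37.0 and 37.2 RPKM and Mbtps2 at 6.20, 4.11 and 7.57 RPKM, all below control. The differences there, -1.12 ± 0.36 for Mbtps1 and -0.57 ± 0.27 for Mbtps2, did not pass (adjusted p = 0.202 and 0.345 by limma). S1P and S2P also process the sterol-regulated SREBP factors. Mbtps1 without control replicate 2 did not pass in Atg7 KO (adjusted p = 0.213), and with a term for the library-name prefix neither protease passed in Atg5 KO (adjusted p = 0.292 and 0.105 for Mbtps1 and Mbtps2). The gene of Perk, Eif2ak3, named after its values were seen, fell in Atg5 KO (log2 fold change -0.52 ± 0.17, adjusted p = 0.0557).

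Of 19 tested genes of ER-associated degradation, 1 fell in Fip200 KO, 6 fell and 2 rose in Atg5 KO, and 4 fell and 2 rose in Atg7 KO, with list medians of -0.01, -0.21 and -0.27. The shares that fell were 31.6% in Atg5 KO and 21.1% in Atg7 KO, beside 18.7% and 13.7% of all tested genes, and 10.5% rose in each, beside 22.9% and 11.3%. Leaving out Herpud1, which is among the 10 genes, 5 of 18 fell in Atg5 KO and 3 of 18 in Atg7 KO. Fam8a1, a cofactor of Hrd1, was called in Atg5 KO (log2 fold change -1.07 ± 0.19, adjusted p = 0.0106 by limma) and fell in Atg7 KO (-0.75 ± 0.20, adjusted p = 0.0476) and Fip200 KO (-0.98 ± 0.18, adjusted p = 0.0721). Fam8a1 no longer passed in Atg7 KO without control replicate 1 or 3 or Atg7 KO replicate 1 or 3 (adjusted p from 0.101 to 0.165). In Fip200 KO it passed only without Fip200 KO replicate 3 (adjusted p = 0.0504) and not without any other single library (0.109 to 0.49). Vcp, the ATPase that pulls substrates from the membrane, rose by 0.77 in Atg5 KO (SE 0.12, adjusted p = 0.00737) and 0.67 in Atg7 KO (SE 0.15, adjusted p = 0.0308), from 127 to 147 RPKM in control to 208 to 268 RPKM in those 6 libraries. It is named after its values were seen, as are Aup1, which rose in Atg5 KO (0.38 ± 0.12, adjusted p = 0.0596), and Nploc4, which rose in Atg7 KO (0.36 ± 0.13, adjusted p = 0.0988). Edem2, also named after its values were seen, fell in both, by 0.32 in Atg5 KO and 0.56 in Atg7 KO (adjusted p = 0.0572 and 0.0606).

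**Figure D5:**
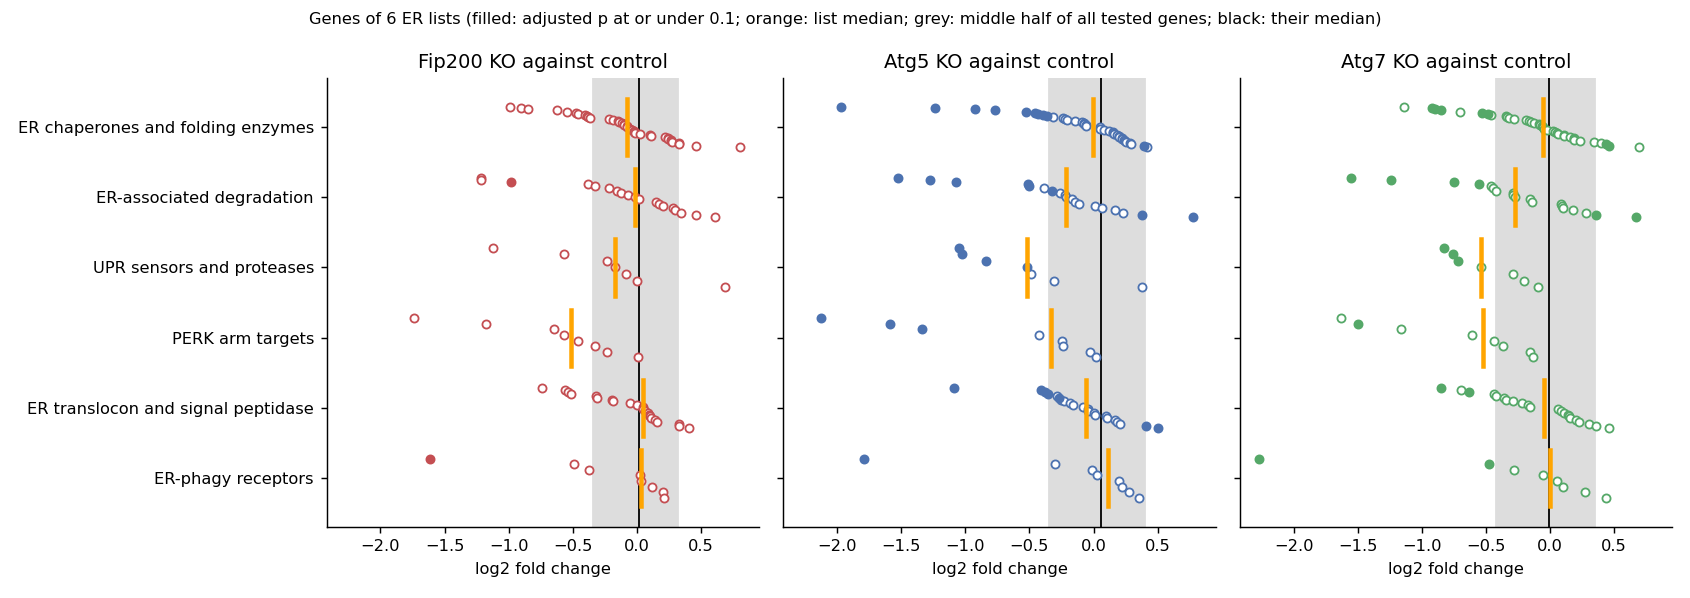
Log2 fold change of the tested genes of 6 lists in each KO against control, with filled points for genes past the test, orange bars at list medians, and the median and quartiles of all tested genes as a black line and grey band. The lists spread to both sides of 0, and the median of the sensors and proteases is at -0.52 in Atg5 KO and -0.54 in Atg7 KO.

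The PERK arm targets were highest in control replicate 2. Of 8 genes, 0 passed in Fip200 KO, 3 fell in Atg5 KO and 1 fell in Atg7 KO, with list medians of -0.52, -0.33 and -0.53. The shares that fell were 37.5% in Atg5 KO and 12.5% in Atg7 KO, beside 18.7% and 13.7% of all tested genes. Ddit3, the transcription factor Chop, was at 42.7, 216 and 36.0 RPKM in control and 25.3, 23.6 and 19.7 RPKM in Atg5 KO (log2 fold change -1.59 ± 0.63, adjusted p = 0.0995 by limma). Without control replicate 2 the difference was -0.77 (adjusted p = 0.0233), under the 2-fold limit, and without any 1 of the Atg5 KO libraries Ddit3 did not pass (adjusted p from 0.177 to 0.203). Chac1, a glutathione-degrading enzyme, was at 41.78, 162.5 and 70.05 RPKM in control and 32.53, 36.95 and 23.81 RPKM in Atg5 KO, where it was called (-1.34 ± 0.46, adjusted p = 0.068 by limma). Without control replicate 2 it was at -0.81 (adjusted p = 0.0866), under the 2-fold limit, and it did not pass without control replicate 3 or any 1 of the Atg5 KO libraries (adjusted p from 0.111 to 0.166). Nupr1, a stress-induced chromatin protein, was called in Atg5 KO (-2.13 ± 0.38, adjusted p = 0.0108 by limma) and Atg7 KO (-1.50 ± 0.33, adjusted p = 0.0296). Nupr1 was at 242, 524 and 222 RPKM in control, 76.2, 93.1 and 46.8 RPKM in Atg5 KO, and 100.1, 100.1 and 123 RPKM in Atg7 KO. It still passed without control replicate 2 (-1.74, adjusted p = 0.0176, and -1.11, adjusted p = 0.0487). Atf4 itself was at 229 to 294 RPKM in control and 165 to 287 RPKM in the KO libraries and did not pass in any KO.

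Genes of protein entry into the ER had medians near those of all genes. Of 22 translocon, signal recognition particle and signal peptidase genes, 0 passed in Fip200 KO, 5 fell and 2 rose in Atg5 KO, and 2 fell in Atg7 KO, with list medians of 0.05, -0.06 and -0.04. The shares that fell were 22.7% in Atg5 KO and 9.09% in Atg7 KO, near the 18.7% and 13.7% of all tested genes, and 9.09% rose in Atg5 KO, beside 22.9%. Sec11c, a catalytic subunit of signal peptidase, was the called gene, at 39.2, 49.1 and 60.8 RPKM in control and 23.2, 21.9 and 23.1 RPKM in Atg5 KO (log2 fold change -1.09 ± 0.17, adjusted p = 0.00719 by limma). The genes that rose in Atg5 KO were Sec61b (0.41 ± 0.12, adjusted p = 0.0378) and Srp72 (0.50 ± 0.15, adjusted p = 0.0436), and beside Sec11c those that fell there were Ssr2, Ssr4, Spcs1 and Sec62, by 0.27 to 0.41. In Atg7 KO Ssr2 (-0.85 ± 0.16, adjusted p = 0.0211) and Sec62 (-0.63 ± 0.18, adjusted p = 0.0602) fell, and all of these but Sec11c are named after their values were seen.

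The counts over these lists fell with a term for the library-name prefix, as did those over all genes. In Atg5 KO the genes past the test with that term were 1 of the ER chaperones and folding enzymes (10 without it), 3 of ER-associated degradation (8 without it), 1 of the sensors and proteases (4 without it), and 0 of the PERK arm targets and of the translocon list, and the share over all tested genes was 6.43% instead of 41.5%. In Atg7 KO 0 genes of every list passed with the term, against 0.311% of all tested genes instead of 25.1%. In Fip200 KO the count for ER-associated degradation was 0 with the term and 0 without control replicate 2, where 0.0% of 11583 tested genes passed.

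Most of the list genes that passed did so by a margin that 1 library could take away. Of the 33 genes of the lists, ER-phagy receptors included, that passed in Atg5 KO, 15 passed whichever single library was left out, against 5 of 21 in Atg7 KO and 0 of 2 in Fip200 KO. The calls of Mbtps2, Fam8a1 and Sec11c in Atg5 KO fell under the 2-fold limit without control replicate 3 (-0.958, -0.998 and -0.934), as did those of Mbtps2 and Fam8a1 without Atg5 KO replicate 3 (-0.998 and -0.893), and all of them still passed the test. Of those named above, Eif2ak3 (adjusted p = 0.122 by limma), Ssr4 (0.176) and Spcs1 (0.124) did not pass in Atg5 KO without control replicate 2, and Spcs1 moved from -0.41 to -0.26. In Atg7 KO without that library Sil1 (adjusted p = 0.133 by limma), Txndc12 (0.218), Manf (0.138), Edem2 (0.13), Nploc4 (0.206) and Sec62 (0.165) did not pass.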

How the data were processed

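RNA of 12 libraries, 3 from control cells and 3 from each KO, was isolated with a column kit and sequenced from directional libraries. Per the study's methods, the authors aligned reads with TopHat2, counted them with Bioconductor packages and compared them with edgeR. The genome build, annotation and versions were not given in the sources used here. The authors deposited 3 tables, 1 per KO with the same controls, whose per-library values are RPKM (read from the values). The authors' group means, fold changes and p-values were not used as results, apart from the group means, a signal on the scale of reads, which set the scale of the recovered reads. For 100.0% of values, RPKM gave whole reads within 0.01, and depth comes from those reads. The counting error given for Dnajb9 covers counting only, whereas each ± beside a log2 value is the limma SE, from the spread between libraries. In no pair of replicates did the files hold the same library. The chi-square per degree of freedom was 8.66 between Atg5 KO replicates 1 and 2, and 51.4 to 316 in the other pairs. Those 2 libraries were thus closer to each other than any other replicates. The highest values were between Fip200 KO replicate 3 and replicates 1 and 2 of its group (316 and 238). Between control replicate 2 and control replicates 1 and 3 they were 143 and 92.4.

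The test, limma 3.58.1 (R 4.3.3) on log2(RPKM + 0.5) with a trend, took genes that reached 0.5 RPKM in 3 or more libraries. The pseudocount understates the change of low genes. The test was run in fits of the 6 libraries of a comparison, and of all 12 between KO. Adjustment of p-values, over all tested genes, followed Benjamini and Hochberg. An exact permutation test of 3 against 3 cannot go below 0.1. The fit was tested on simulated data. The alternatives were the pseudocount, the filter, median-of-ratios scaling, all libraries in 1 fit, the library-name prefix, a replicate block, leaving out each library, and voom on the recovered reads, which was added after seeing the data, as was the prefix term between KO. Named genes were the 10 genes, up to 4 called genes per list and comparison by size, the 3 targeted genes and the 5 genes most like Hspa5. The genes and lists were chosen with earlier results of these data known. Blood cell and epithelial cell lists were also checked: 2 genes of each were in the tables, summing to at most 0.129 and 10.6 RPKM. The values of 1 gene of the ER-associated degradation list are not reported here.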

Additional observations from a re-analysis of the deposited data

How the results depend on the processing

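Of 420 recomputed fold changes of the 10 genes over 14 alternatives per comparison, 364 kept their direction and side of the threshold, 36 no longer passed, 4 newly passed and 16 turned sign. In Fip200 KO, 0 genes were called, but 1 was called and 3 passed with all 12 libraries in one fit, and leaving out single libraries gave 0 to 1 for both counts (1 without Fip200 KO replicate 3). In Atg5 KO, 2 genes were called (1 to 3 with single libraries left out, 1 without control replicate 2), and of the 4 that passed, 2 did with a term for the library-name prefix. In Atg7 KO, 1 gene was called (0 to 2 with single libraries left out, 0 without control replicate 3 or Atg7 KO replicate 1, 2 without Atg7 KO replicate 2), and 0 with a prefix term. Of the 5 that passed, 3 did with no filter, 0 with a prefix term and 1 to 5 with single libraries left out, of which 1 without control replicate 3 or Atg7 KO replicate 1, 2 without control replicate 2 or Atg7 KO replicate 3, and 3 without control replicate 1. Between Atg5 KO and Fip200 KO, leaving out single libraries gave 0 to 1 genes. The cause was not tested, beyond fewer samples where libraries were left out.

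Same-numbered control and KO libraries did not deviate together (r from -0.22 to 0.08), so the numbers do not pair them. A replicate block left 0, 2 and 1 genes called in Fip200, Atg5 and Atg7 KO, and 0, 3 and 3 past the test, and 0 in each comparison between KO. Over the lists, the block gave 6 instead of 10 ER chaperones and folding enzymes and 5 instead of 8 genes of ER-associated degradation past the test in Atg5 KO, and 3 instead of 7 and, for the translocon list, 1 instead of 2 in Atg7 KO. In Fip200 KO it gave 0 instead of 1 gene of ER-associated degradation. The shares of all tested genes past the test under the block were 0.788% instead of 2.05% in Fip200 KO, 33.6% instead of 41.5% in Atg5 KO and 16.1% instead of 25.1% in Atg7 KO.

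Fold changes that turned sign did not pass in any alternative. With a prefix term these were Hspa5 (0.14) and Dnajc3 (0.14) in Fip200 KO, and Pdia6 (-0.17) and Xbp1 (0.072) in Atg7 KO. With single libraries left out, values ranged in Fip200 KO from -0.35 to 0.086 for Hspa5, -0.41 to 0.28 for Dnajc3 and -0.18 to 0.48 for Pdia4, and in Atg7 KO from -0.22 to 0.22 for Hspa5, -0.19 to 0.082 for Dnajc3, -0.24 to 0.17 for Pdia4 and -0.081 to 0.12 for Pdia6. The 10 genes had at least 267 reads in every library, and each group had 3 libraries. Whether depth or the number of libraries limited the counts was not tested.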

Other observations

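Of 8 ER-phagy receptors, which link portions of the ER to the autophagy machinery, Retreg1 stood apart. Retreg1, also known as Fam134b, was at 14.9, 15.0 and 22.8 RPKM in control, 7.12, 3.45 and 5.89 RPKM in Fip200 KO, 5.28, 6.11 and 3.03 RPKM in Atg5 KO, and 2.92, 2.78 and 3.93 RPKM in Atg7 KO. All 9 KO libraries were below the lowest control. It was called in each comparison, against the same 3 control libraries. In Fip200 KO the log2 fold change was -1.62 ± 0.32, where the adjusted p by limma was 0.0864. In Atg5 KO it was -1.79 ± 0.28 with an adjusted p of 0.00756 by limma, and in Atg7 KO -2.27 ± 0.23 with an adjusted p of 0.0072. Without control replicate 2 it was at -1.71 (adjusted p = 0.328), -1.89 (adjusted p = 0.0183) and -2.37 (adjusted p = 0.0382), and the call in Fip200 KO was also lost without control replicate 1, control replicate 3 or Fip200 KO replicate 2 (adjusted p = 0.186, 0.48 and 0.168). With a term for the library-name prefix it passed in Atg5 KO (adjusted p = 0.0481) but not in Atg7 KO (adjusted p = 0.402) or Fip200 KO (adjusted p = 0.39). Of the other 7 receptors, 0 passed in Fip200 KO and Atg5 KO, and Retreg2, named after its values were seen, fell in Atg7 KO (-0.48 ± 0.17, adjusted p = 0.095) and did not pass with any single library left out (adjusted p from 0.101 to 0.259). The list medians were 0.03, 0.11 and 0.00. The genes that passed, all lower, were 12.5%, 12.5% and 25.0% of the 8 in Fip200, Atg5 and Atg7 KO, beside 1.69%, 18.7% and 13.7% of all tested genes that passed lower.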
